A study of Rattus norvegicus with 12 samples.

Results

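Transcripts of 4 flavin-containing monooxygenase genes, Fmo1, Fmo2, Fmo4 and Fmo5, were followed in the livers of obese female and male ZSF1 rats. They are the 4 rows, of 16478 gene rows in each count file, whose symbols name these enzymes, and other rows of the family were not analysed here. The groups were 6 female and 6 male adult obese animals of the ZSF1 strain, each 16 weeks old, untreated, fed chow without restriction and represented by 1 liver RNA library. ZSF1 is a hybrid of strains with a mutated leptin receptor gene, and its obese animals, females and males alike here, lack a working receptor. No lean animals were compared, so the values describe sex within obesity.

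Flavin-containing monooxygenases are enzymes of the endoplasmic reticulum that hold FAD and use NADPH and oxygen to add an oxygen atom to nitrogen and sulfur atoms of drugs, dietary amines and thiols. Unlike cytochrome P450 enzymes, they take their electrons directly from NADPH and need no partner reductase. Fmo1 encodes a broadly acting enzyme of rodent liver and kidney that also turns hypotaurine into taurine. Fmo2 encodes the form best known from lung, and Fmo4 encodes a form of low abundance whose substrates are little known. Fmo5 encodes a form that acts poorly on the usual amine and sulfide substrates and instead inserts oxygen next to carbonyl groups, as a Baeyer-Villiger monooxygenase.

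In the RefSeq gene table of assembly GRCr8, Fmo4, Fmo1 and Fmo2 are consecutive protein-coding genes on chromosome 13, and Fmo5 is alone on chromosome 2, between Chd1l and Prkab2. The 250 bases before the start of Fmo1, the 1 member whose sex difference passed the test, and of Fmo5 are shown because Fmo1 was the called member and Fmo5 the member measured with the most counts. The starts are those of the RefSeq promoter table. The sequences were taken from RefSeq (build GRCr8) and read 5′ to 3′ on the strand of the gene. Fmo1 lies on the minus strand, with this window at chr13:77747667-77747916, and Fmo5 on the plus strand, with this window at chr2:187910714-187910963. Capitals mark matches to the searched motifs.
Fmo1: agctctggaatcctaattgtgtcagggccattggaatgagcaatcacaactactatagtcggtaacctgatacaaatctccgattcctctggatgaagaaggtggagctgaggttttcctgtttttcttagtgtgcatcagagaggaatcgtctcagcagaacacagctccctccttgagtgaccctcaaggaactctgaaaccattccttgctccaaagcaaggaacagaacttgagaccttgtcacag
Fmo5: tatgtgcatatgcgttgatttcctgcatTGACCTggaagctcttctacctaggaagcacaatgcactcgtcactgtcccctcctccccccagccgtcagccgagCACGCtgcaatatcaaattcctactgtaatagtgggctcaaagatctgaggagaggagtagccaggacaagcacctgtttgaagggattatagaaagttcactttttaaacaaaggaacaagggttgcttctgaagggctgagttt

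Of 8 short motifs searched on both strands, none matched the Fmo1 window. Whether liver uses the starts that define the Fmo1 and Fmo5 windows was not tested. The letters searched were GTTAAT for the liver factor HNF1, AGGTCA for nuclear receptors such as HNF4, TTCNNNGAA for STAT5 and for its antagonist BCL6, ATCAAT for the factor HNF6, TGTTTAC for the FOXA factors, TTGCGCAA for the C/EBP factors, GCGTG for the dioxin receptor AHR and TATAAA for the TATA box. The Fmo5 window held AGGTCA on its reverse strand, 222 to 217 bases before the start, and GCGTG on its reverse strand, 146 to 142 bases before it. Over 33469 promoter windows of the same length, 14.1% held AGGTCA and 25.9% held GCGTG, and the 2 matches did not overlap each other.

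Fmo1 was higher in female than in male livers, by 1.61-fold, while Fmo4, Fmo5 and Fmo2 did not pass the test. Levels are counts per 1000000 counts, scaled by edgeR's TMM factors, which correct for a few abundant genes taking up reads (CPM), and the test was edgeR's quasi-likelihood test, with p-values adjusted by Benjamini-Hochberg over all 9943 genes that passed a filter on low counts. All 4 members passed that filter. A gene was called where its adjusted p was under 0.05. Across all tested genes 43.2% were called, 20.5% as higher in females and 22.7% as higher in males, so 1 called gene of 4 was no larger a share than that of all tested genes. These are bulk livers, in which fewer cells of a type and less RNA per cell cannot be told apart. In no member did the 6 females and the 6 males separate without overlap, which 22.8% of tested genes did. The fitted log2 fold changes, female over male, were positive for all 4 members with all animals included, with a median of 0.20 against -0.01 over all tested genes, but the Fmo2 value turned negative in several settings given further on.

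Fmo1 had 23.99, 32.5 and 41.2 CPM as the lowest, median and highest value in females, against 10.9, 19.6 and 31.1 CPM in males. The groups overlapped: 3 females lay above every male, and 4 males lay below every female. Among the males a gap parted 3 animals with low values (males 1, 4 and 6, at 10.9, 11.8 and 15.4 CPM) from 3 with values inside or just under the female range (males 2, 3 and 5, at 23.8, 27.2 and 31.1 CPM). The lowest female was female 12 at 23.99 CPM, and female 9 was the highest at 41.2 CPM. Fmo1 averaged 32.5 ± 6.78 CPM in females and 20.03 ± 8.48 CPM in males (SD, n = 6 each), a log2 fold change of 0.69 (SE 0.26, 95% interval 0.13 to 1.25, edgeR adjusted p = 0.0483).

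This call stood close to the threshold. It was lost when any 1 of females 7, 8, 9, 10 and 13 or males 1, 2, 4 and 6 was left out (edgeR adjusted p from 0.0504 to 0.094), and held without female 12, male 3 or male 5. The log2 fold change stayed between 0.57 and 0.86 over these 12 fits, and DESeq2 and limma-voom gave 0.70 and 0.76 with adjusted p-values of 0.0117 and 0.0159. The fold change of Fmo1 was larger than that of 87.8% of tested genes, and its SE was larger than that of 89.7%. The spread between animals was 4.20 times the SD that counting error alone gives in females and 7.65 times in males.

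**Figure D1:**
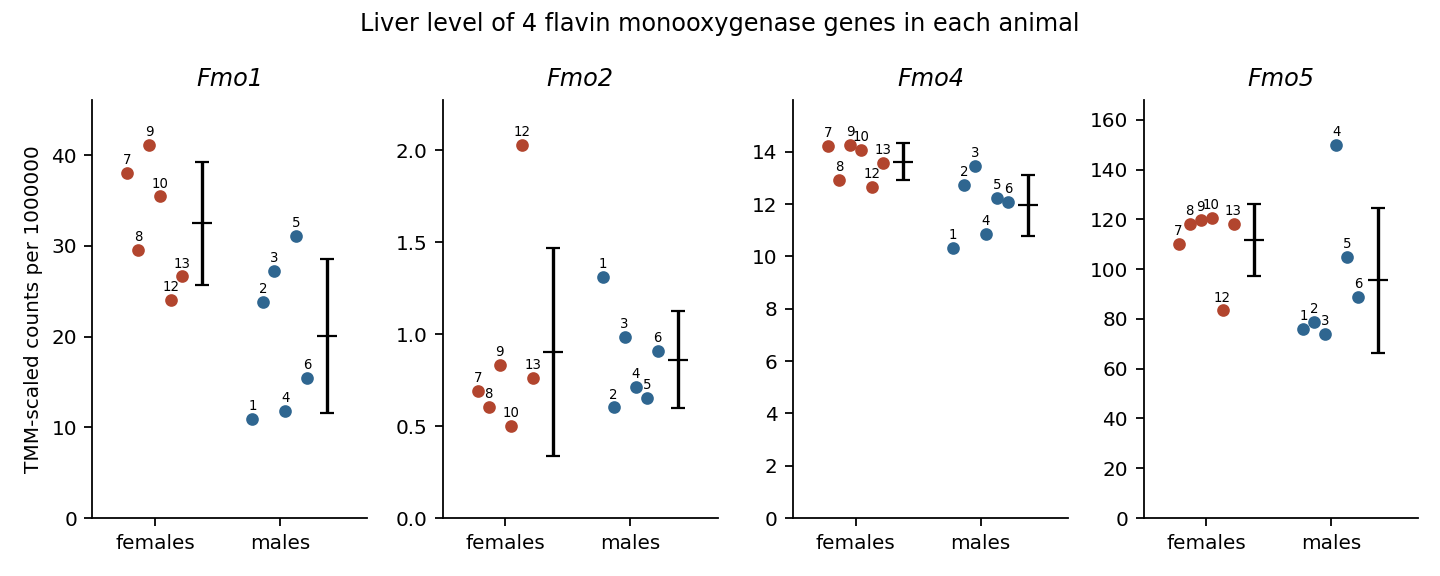
TMM-scaled levels in CPM (vertical axes from 0, on a scale of their own for each gene) of Fmo1, Fmo2, Fmo4 and Fmo5 in each animal, with females left and males right. Points carry the animal number, and the black bar is the mean with its SD (n = 6). The sexes overlap in all 4 genes, with Fmo1 averaging 32.5 CPM in females and 20.03 CPM in males, and male 4 holding the highest Fmo5 value at 150.04 CPM.

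Fmo5 was measured with the most counts of the 4 members, which sets its precision and is no comparison of levels, since gene lengths were not used. It had between 864 and 2889 in female libraries and between 870 and 2734 in male libraries. Its values were 83.4, 118.3 and 120.6 CPM as the lowest, median and highest value in females, against 74.0, 83.9 and 150.04 CPM in males. Of the females, 5 lay close together between 109.9 and 120.6 CPM, and female 12 lay below them. Of the males, 5 lay between 74.0 and 104.9 CPM, below those 5 females, and male 4 lay above every female. With all animals the means were 112 ± 14.4 CPM in females and 95.4 ± 29.1 CPM in males (SD, n = 6 each), and the difference was not called (log2 0.23, 95% interval -0.13 to 0.58, edgeR adjusted p = 0.290).

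The Fmo5 result turned on male 4. Without that animal Fmo5 was higher in females by 0.41 on the log2 scale (edgeR adjusted p = 0.00643). With both male 4 and female 12 left out it was higher by 0.49 (edgeR adjusted p = 0.000234). Leaving out any single animal other than male 4 gave log2 values from 0.16 to 0.30, none of them called. Male 4 held the highest Fmo5 value among males and female 12 the lowest among females. The fits without male 4 thus leave out animals that stand out in the tested values. Their p-values are no independent support for a difference. Calls over all genes tested rose as well, from 4298 with all animals to 4627 without male 4 and 4634 without both animals. Fmo5 and Chd1l, which encodes a chromatin remodelling enzyme, overlap in the GRCr8 gene table. The deposited counts hold a row named ambiguous beside the genes and carry the word strand in their names. Whether the authors' counting gave reads from such a stretch to that row or to a gene was not tested. Its annotation and exact strand setting are not known here.

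Fmo4 differed least between animals, with an SD of 5.15% of the mean in females and 9.83% in males. It had 12.6, 13.8 and 14.3 CPM as the lowest, median and highest value in females, against 10.3, 12.2 and 13.5 CPM in males. Of the females, 4 lay above every male, and of the males, 4 lay below every female. Fmo4 averaged 13.6 ± 0.701 CPM in females and 11.9 ± 1.17 CPM in males (SD, n = 6 each), 1.14-fold, which missed the threshold (log2 0.18, SE 0.08, 95% interval 0.02 to 0.34, edgeR adjusted p = 0.0624, 0.0284 unadjusted).

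The SD of Fmo4 among females was 0.685 times the SD expected from counting error, and among males 1.38 times, so at 103 to 345 counts per library little spread beyond counting was measured. The difference was called with upper quartile scaling (edgeR adjusted p = 0.0339), with a filter at a mean of 1 CPM (0.0429), with the 20 most abundant genes left out (0.0462) and without male 3 (0.0338). The log2 value stayed between 0.15 and 0.22 over every fit run. Its fold change was larger than that of 39.8% of tested genes, so among the sex differences of these livers it was a small one. A long non-coding RNA gene, LOC102555487, overlaps Fmo4 in the GRCr8 table, and how reads from that stretch were counted was not tested either.

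Fmo2 lay near the lower end of what these libraries measured. Its counts ran from 6 to 27 in female libraries and from 9 to 26 in male libraries, and 2.92% of tested genes had a lower mean CPM, unscaled for length. It had 0.501, 0.727 and 2.03 CPM as the lowest, median and highest value in females, against 0.601, 0.812 and 1.31 CPM in males. Female 12 held the highest value of all 12 animals, and the other 5 females lay between 0.501 and 0.831 CPM. The means were 0.904 ± 0.564 CPM in females and 0.862 ± 0.265 CPM in males (SD, n = 6 each), and no difference was detectable at this depth (log2 0.05, 95% interval -0.68 to 0.78, edgeR adjusted p = 0.930).

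Summed over animals, Fmo2 had 80 counts in females and 90 in males. The ratio of the sums, corrected for library size, was 1.00, with an exact 95% binomial interval of 0.731 to 1.37 that covers counting error only. Without female 12 the sums were 53 and 90 counts, the ratio 0.771 (0.538 to 1.09) and the fitted log2 value -0.36 (edgeR adjusted p = 0.291). The direction of Fmo2 was therefore not fixed by these data. As Fmo2 is known from lung, markers of lung and kidney were read beside it: their 8 rows summed to 0.139 to 0.485 CPM in females and 0.0547 to 0.524 CPM in males, with Scgb1a1 and Slc34a1 at 0 in every library.

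**Figure D2:**
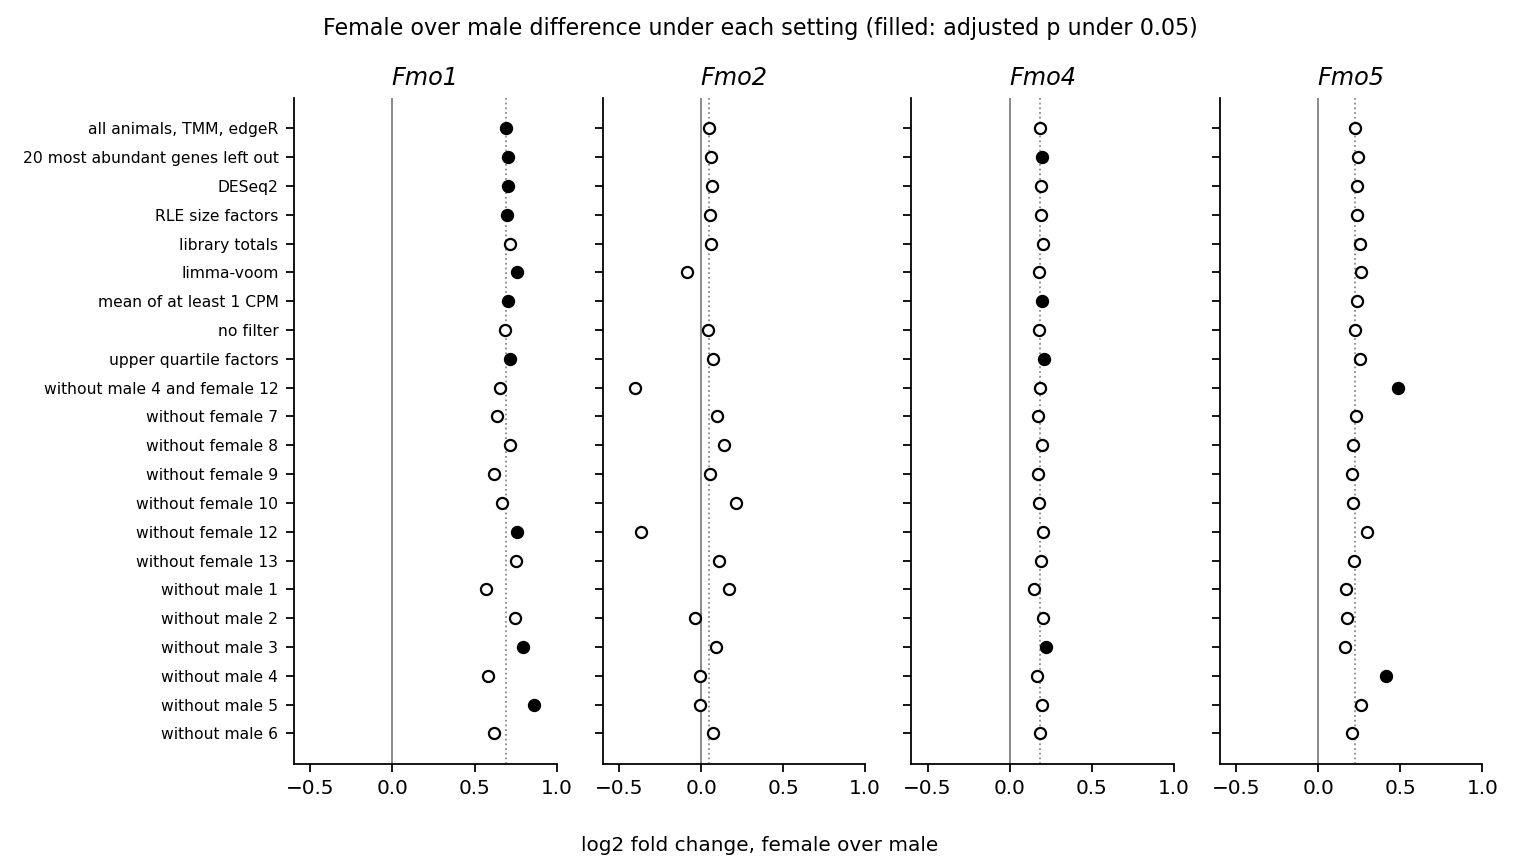
Log2 fold change, female over male, of each member under the main setting and 21 alternatives, 1 row each, with filled points where the adjusted p was under 0.05. The dotted line is the value with all animals. Fmo1 stays between 0.57 and 0.86 but loses its call in most rows that leave out an animal, Fmo5 is called in the 2 rows without male 4, and Fmo2 lies on both sides of 0.

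Because counts of 2 genes in 1 library share its depth, their ratio needs no scaling, and the 6 ratios between members were compared as well, a choice made after the values were seen. The ratio of Fmo1 to Fmo4 counts had 1.90, 2.40 and 2.88 as the lowest, median and highest value in females, against 1.06, 1.57 and 2.54 in males. It was higher in females by 0.59 on the log2 scale (2-sided exact permutation p = 0.0411), which did not hold when adjusted over the 6 ratios (0.247). The ratio of Fmo1 to Fmo5 had a median of 0.291 among females, against 0.235 among males (exact permutation p = 0.175, adjusted 0.351), and that of Fmo4 to Fmo5 a median of 0.118 among females, against 0.136 among males (exact permutation p = 0.755, adjusted 0.755). The 3 ratios with Fmo2 had exact permutation p-values from 0.149 to 0.535. No pair of members was thus shown to differ in its sex difference.

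Among animals of 1 sex, Fmo1 and Fmo4, which are neighbours on chromosome 13, had the highest positive correlation of any pair of members in each sex, although no pair passed the adjustment. Within females the correlation of their log2 CPM was r = 0.88 (exact permutation p = 0.0306) and rho = 0.94 (p = 0.0167), and within males r = 0.87 (exact permutation p = 0.0292) and rho = 0.83 (p = 0.0583), over n = 6 each. Without the 2 animals farthest from the median of Fmo1, r was 0.73 in females (without females 9 and 12) and 0.97 in males (without males 1 and 5). Adjusted over the 12 correlations computed (6 pairs in each sex), the p of r was 0.183 in each sex and that of rho 0.200 in females and 0.350 in males, so neither passed. The SD of Fmo4 was 0.685 times that from counting error in females and 1.38 times in males, so little spread beyond counting was measured. The 2 CPM values of an animal also share 1 scaling factor. Whether scaling or place on the chromosome has a part in these correlations was not tested. Males 1 and 4 held the lowest values of both genes, and females 8, 12 and 13 held the lowest 3 values of both among females.

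The other pairs gave no pattern shared by the sexes that outlasted the removal of 2 animals. Fmo2 and Fmo5 ran against each other in females (r = -0.93, rho = -0.49, exact permutation p = 0.0750 and 0.356, adjusted 0.300 and 0.610), and r became 0.29 without females 10 and 12, so in females this relation rests on those animals. In males the same pair had r = -0.47 and rho = -0.54 (exact permutation p = 0.383 and 0.297, adjusted 0.498 and 0.610), and r became -0.76 without males 1 and 2. Fmo1 and Fmo5 had r = 0.60 and rho = 0.49 in females and r = -0.28 and rho = -0.03 in males (exact permutation p of r 0.164 and 0.644, of rho 0.356 and 1.00, each adjusted p at least 0.359), and without the 2 animals farthest in Fmo1 r was -0.52 in females and -0.90 in males. Of the remaining correlations none had an exact permutation p under 0.05.

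**Figure D3:**
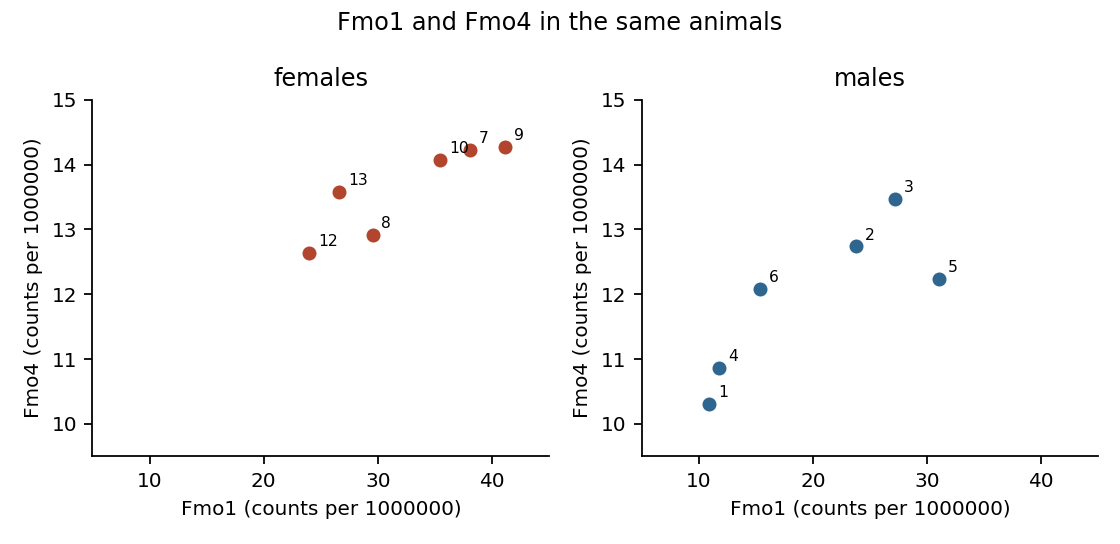
Fmo4 against Fmo1, both in TMM-scaled CPM, in 6 females (left) and 6 males (right), with points labelled by animal number. The correlation was r = 0.88 in females and 0.87 in males (adjusted p 0.183 in each), and males 1 and 4 lie lowest on both axes.

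The genes whose pattern lay closest to each member were sought by the correlation of log2 CPM deviations from the sex means over 12 animals, among 7543 tested genes with a mean of at least 5 CPM. Since they are the highest of so many, the values are a description and carry no p. For Fmo1 these were Snap23 (r = 0.91, rho = 0.89), Ppp1r7 (r = 0.91, rho = 0.93) and Xrcc5 (r = 0.90, rho = 0.92), which encode a membrane fusion protein, a regulator of protein phosphatase and a DNA end-binding protein. Of these Snap23 was higher in females, by 1.16-fold (edgeR adjusted p = 0.0186), at 25.6 ± 1.67 CPM in females and 22.1 ± 1.601 CPM in males, and the other 2 were not called. For Fmo4 they were Armc8 (r = 0.88), Rcan1 (r = 0.84), a calcineurin inhibitor gene, and Prpsap1 (r = 0.84). For Fmo5 they included Anxa11 (r = 0.94, rho = 0.83), an annexin gene, and Ctnnbip1 (r = 0.93, rho = 0.80), which encodes a beta-catenin inhibitor. The Fmo5 values behind these correlations are those in which male 4 and female 12 stand apart from their sex. Anxa11 was 1.11-fold higher in females (edgeR adjusted p = 0.0274) and Ctnnbip1 1.55-fold higher in males (edgeR adjusted p = 0.00121). For Fmo2 they were Slc25a42 (r = 0.92), MGC112883 (r = 0.90) and Klf10 (r = 0.90), over values that 1 animal dominates.

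The genes listed around these enzymes were called more often as higher in males than in females, except for the transcription regulators. The lists were chosen with earlier results of these data known, so the counts describe the listed genes and are no test. All 6 lists are read against the 20.5% of all tested genes called higher in females and the 22.7% called higher in males. For flavin and electron supply, 9 genes were tested, with 2 higher in females and 4 in males (median log2 -0.14). In the list labelled other amine and aldehyde oxidases, 12 genes were tested, with 2 higher in females and 6 in males (median -0.23). That list also holds genes of enzymes with other substrates, such as the hydroxy acid oxidase genes Hao1 and Hao2. Of 10 genes that reduce sulfoxides, N-oxides and N-hydroxyl groups or supply that reduction, 1 was higher in females and 4 in males (median -0.22). For choline and methylamines, 20 genes were tested, with 4 higher in females and 8 in males (median -0.15), and of 12 genes of cysteine, cysteamine and taurine, 0 were higher in females and 4 in males (median -0.11). Of 26 transcription regulators, 10 were higher in females and 4 in males (median 0.16). The median over all tested genes was -0.01. Without male 4 and female 12 the genes higher in females and in males numbered 2 and 3, 1 and 7, 1 and 4, 6 and 8, 1 and 4, and 9 and 5 in the same order of lists.

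In the supply of flavin and electrons, Flad1, which encodes the synthase of the FAD cofactor that these monooxygenases carry, was 1.31-fold higher in males (28.4 ± 1.30 CPM in females and 37.2 ± 1.49 CPM in males, edgeR adjusted p = 3.82e-05, named after its value was seen). Rfk, the riboflavin kinase gene that makes the FAD precursor, had 43.0 ± 2.55 CPM in females and 47.2 ± 5.85 CPM in males and was not called. Por, the reductase on which P450 enzymes depend and flavin monooxygenases do not, was 1.497-fold higher in males. Cyb5b, the mitochondrial cytochrome b5, and Cyb5r3, a cytochrome b5 reductase, were 1.84-fold and 1.40-fold higher in females. Cyb5a, the microsomal cytochrome b5 gene, went the other way (591 ± 20.4 CPM in females and 771 ± 33.8 CPM in males, 1.31-fold higher in males, edgeR adjusted p = 0.000104, named after its value was seen). Among the other oxidases, the flavoprotein gene Hao2 stood at 32.2 ± 7.23 CPM in females and 394 ± 123 CPM in males (12.2-fold), its relative Hao1 was 1.90-fold and Dao, the D-amino acid oxidase gene, 1.61-fold higher in males. Aox1, an aldehyde oxidase gene, was not called and had 544 ± 101 CPM in females and 546 ± 87.9 CPM in males.

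Among genes that reduce sulfoxides, N-oxides and N-hydroxyl groups or supply that reduction, Sepx1 (now Msrb1), a methionine sulfoxide reductase gene, was 1.89-fold higher in males. Txn1, the thioredoxin gene, was 1.26-fold higher in males. Mosc1 (now Mtarc1), which encodes a mitochondrial reductase of N-hydroxylated compounds, was 1.30-fold higher in females, and its relative Mosc2 (now Mtarc2) was not called (159 ± 3.78 CPM in females and 170 ± 20.8 CPM in males). In the choline list Gnmt, a glycine methyltransferase gene, was 1.97-fold higher in males, and the choline transporter-like genes Slc44a4 and Slc44a3, at most 1.88 and 3.07 CPM in any male, were 2.37-fold and 1.63-fold higher in males. Bhmt, the betaine-homocysteine methyltransferase gene, had 3816 ± 1308 CPM in females and 4743 ± 1150 CPM in males and was not called. In the taurine list Vnn1, whose product releases cysteamine, was 3.02-fold, Baat, which joins taurine to bile acids, 1.55-fold and Gclm, a subunit gene of glutamate-cysteine ligase, 1.42-fold higher in males. Cth, the cystathionine gamma-lyase gene, had 1706 ± 543 CPM in females and 1629 ± 250 CPM in males and was not called.

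Of the regulators, Trim24, a transcriptional coregulator gene, was 14.2-fold and Onecut1, the HNF6 gene, 3.71-fold higher in females (52.1 ± 11.6 CPM in females and 14.1 ± 13.4 CPM in males, log2 1.89, against 2.60 with limma-voom), and Nr1i3, which encodes the xenobiotic receptor CAR, was 7.05-fold higher in males. Nr3c1, the glucocorticoid receptor gene, had 132 ± 7.50 CPM in females and 113 ± 20.3 CPM in males and was not called (edgeR adjusted p = 0.0680). Whether any of these regulators acts on the flavin monooxygenase genes was not tested.

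**Figure D4:**
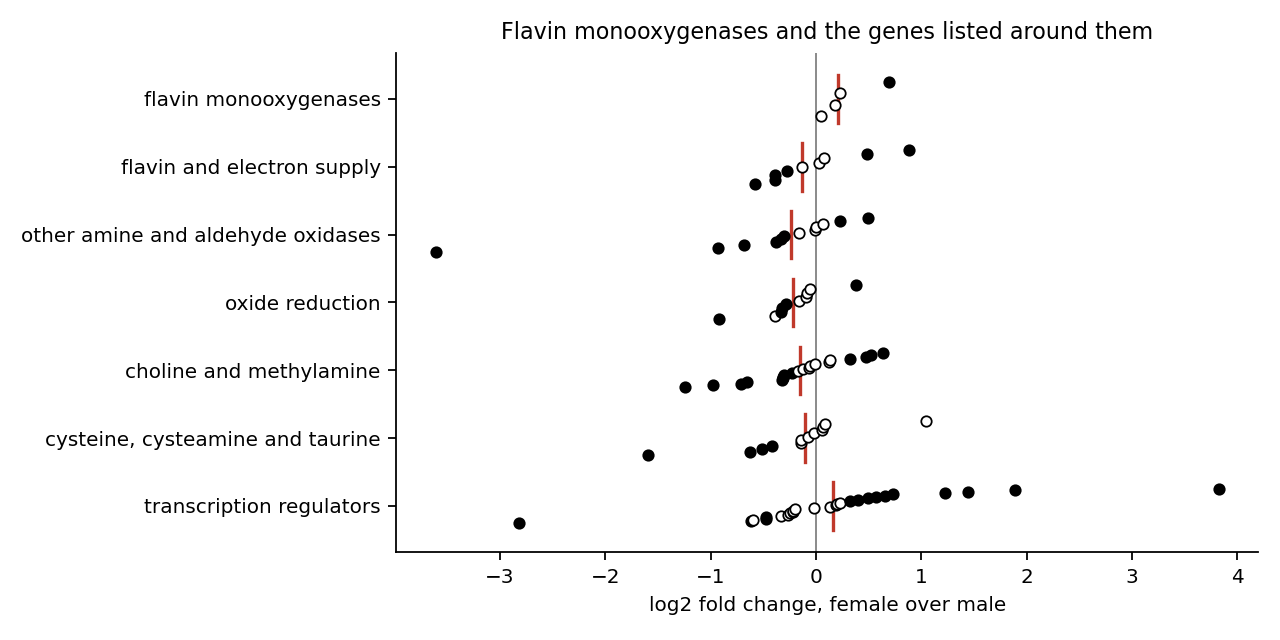
Log2 fold change, female over male, of each tested gene of the 4 flavin monooxygenases and of 6 lists around them, filled where the adjusted p was under 0.05, with a red line at each list's median. The 4 monooxygenases lie within the spread of single genes of the other lists. Their median (0.20) lies above the medians of those lists, which run from -0.23 to 0.16.

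Libraries held 6763879 to 24837602 counts over genes in females and 11381428 to 29232871 in males, with no difference detected (2-sided exact permutation p = 0.597). Hepatocyte markers were abundant in every library, with 7 rows summing to 229514 to 307114 CPM in females and 196382 to 253728 CPM in males, led by Alb, and of these 7 genes 2 were called higher in females and 3 higher in males. Endothelial markers summed to 82.2 to 103 CPM in females and 29.2 to 81.6 CPM in males, with 4 of 5 called higher in females. Red blood cell markers summed to 377 to 895 CPM in females and 653 to 1593 CPM in males, with 4 of 5 called higher in males, and 0 without male 4 or without female 12. Macrophage, stellate, bile duct and adipocyte markers had 2 of 7, 3 of 7, 0 of 3 and 1 of 1 tested genes called. Those called were 2 macrophage and 1 stellate marker higher in females, and 2 stellate and 1 adipocyte marker higher in males. Over all tested genes 43.2% were called. Without male 4 the macrophage markers had 6 of 7 called, all higher in females. Calls over all genes rose in that fit too, from 4298 to 4627. The 1 adipocyte marker tested was Cidec, and the other adipocyte markers, Adipoq, Plin and Lep, had at most 0.0874 CPM in any library. The part of these cell types in the Fmo differences was not tested.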

How the data were processed

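Liver RNA of 12 obese ZSF1 rats, 6 females and 6 males, was made into 1 TruSeq library (Illumina) per animal, per the labels' protocols. Alignment tools and build are known from the submitters' processing notes only, which list Bowtie2 2.0.2 and DESeq and, as the build, rn4. How reads were assigned to genes, with which annotation and strand setting, was not described in the sources used here. The deposited count sets carry only the word strand in their names. The authors deposited raw counts of reads per gene, unnormalized, in 16478 rows. A further 5 rows named no gene (no_feature, ambiguous, too_low_aQual, not_aligned and alignment_not_unique). They held 27.1% to 31.7% of all counts and were left out. All 30 pairs of libraries of 1 sex differed by more than sampling noise (lowest chi-square per degree of freedom 6.34). The labels give no batch, and animals are numbered 1 to 6 in males and 7 to 13 in females, so sex and any batch that followed the numbers cannot be told apart.

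The test was run with edgeR 4.0.16 under R 4.3.3 (filterByExpr with minimum count 10 and minimum total 15, TMM factors, robust quasi-likelihood F test, SE as log2 fold change over root F). Alternatives were upper quartile and RLE factors, library totals, DESeq2 1.42.0, limma-voom (limma 3.58.1), 2 other filters, leaving out the 20 most abundant genes, each animal, or male 4 and female 12. Log2 CPM for correlations used a prior count of 2, and ratios between members 0.5 added to each count. The fitting step was tested on simulated data. All 4 symbols matched RefSeq names (GRCr8, used for names, neighbours and promoter sequences). Transcript lengths for the rn4 annotation were not used here, so levels were not compared between genes.

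The members, the lists and the rule for naming genes were chosen with earlier results of these data known. The rule named, per list, the 3 called genes with the largest fold change and the most abundant gene not called. For likeness it named the 3 closest genes. One of those for Fmo5 is not reported here. A planned scaling per coding length was not made, and listed symbols without a row were not analysed here. Intervals from counts cover counting error only.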

Additional observations from a re-analysis of the deposited data

Results flagged for a closer look

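With 56 groups of 6 animals examined (28 genes in each sex), 7 had 1 animal whose gap to its nearest neighbour was too large a part of the group's range by Dixon's 95% limit, which chance passes in about 1 of 20 groups. Among the members both were of female 12, which held 2.03 CPM of Fmo2 where the next female held 0.831, and 83.4 CPM of Fmo5 where the next held 109.9. Female 12 was also lowest among females for Hao2 (18.3 against 30.8 CPM) and Txn1 (107.6 against 117.9 CPM). Male 4 was lowest among males for Hao1 (448 against 550.4 CPM) and highest for Mosc2 (210.3 against 170.3 CPM). Male 3 was highest for Nr3c1 (153 against 113 CPM). The Fmo5 value of male 4, 150.04 CPM, did not pass this limit, although it decides the Fmo5 call.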

How the results depend on the processing

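Counts of called genes kept within 1.5 times of their value under every alternative, at 3855 to 4634 over all genes, and so did those of the 6 lists. The log2 fold change of Fmo1 was positive in all 21 alternatives. Its call was lost with library totals (0.72, adjusted p = 0.0536), with no filter on low counts (0.68, 0.0846) and without male 4 and female 12 (0.65, 0.0743). With each animal left out in turn it ran from 0.57 to 0.86. Fmo4 became called with upper quartile factors (0.21), with a mean of at least 1 CPM (0.20) and with the 20 most abundant genes left out (0.20), and ran from 0.15 to 0.22 with each animal left out. Fmo5 became called without male 4 and female 12 (0.49), which held its highest male and lowest female value. It ran from 0.16 to 0.41 with each animal left out. Fmo2 reversed with limma-voom (-0.087) and without male 4 and female 12 (-0.40), and ran from -0.36 to 0.21 with each animal left out, negative without female 12 or male 2, 4 or 5. The filter at a mean of 1 CPM removed Fmo2 and Slc44a4. Aox1, at -0.0034, reversed to 0.0066 with DESeq2, 0.0066 with RLE factors, 0.0099 with the 1 CPM filter, 0.011 with the 20 most abundant genes left out, 0.011 without male 4 and female 12, 0.022 with library totals and 0.025 with upper quartile factors, and ran from -0.068 to 0.057 with each animal left out. Cth reversed with limma-voom (-0.023) and ran from -0.0041 to 0.23 with each animal left out. Of the other 22 named genes in the lists none reversed or lost its call in a fit that tested it, and Nr3c1 became called in 3 fits. The causes of these changes were not tested. No paired analysis was possible because females and males share no animal number. Depth limits Fmo2, at 6 to 27 counts per library, and its SD among females was 2.12 times that expected from counting error.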
